A study of Drosophila melanogaster with 6 samples.

Results

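The genes described here encode the initiation and elongation factors of cytosolic translation in *Drosophila melanogaster*, read in cells sorted from larval wing discs. They were chosen by a rule on gene names, made with earlier results of these data known. It took every probe set whose only gene symbol in the platform annotation began with eIF, eEF, or EF and a digit. Control probe sets were left out. This gave 48 probe sets for 42 genes, of 13966 non-control probe sets on the array and 10844 named genes. All 48 symbols were the same in the current RefSeq gene table. A further 10 genes with such names were not analysed here, among them *eEF1alpha1*, *eEF2*, *eIF2alpha* and *eIF2gamma*.

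Both groups of cells came from the same kind of disc. About 200 discs per sample were taken late in the last larval stage from E(spl)m4-GFP animals, in which green fluorescent protein (GFP) is made where the reporter of *E(spl)m4*, a proneural cluster gene, is active. Discs of the w1118 strain, which lack the reporter, set the fluorescence limit. The 3 GFP-positive samples held every cell above it and the 3 GFP-negative samples 100000 cells each from below it, with 1 array per sample. The reporter therefore defines the groups by fluorescence, not by cell type, and GFP can outlast the activity of the gene that drives it. No label states that replicates are separate dissections. The p-values cover only how far these samples differ, part of which may be technical.

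Translation begins when eIF4E binds the cap of an mRNA together with the scaffold eIF4G and the RNA helicase eIF4A. The small ribosomal subunit, carrying the large complex eIF3 and the initiator tRNA on eIF2, is recruited to that complex and searches for the start codon. eIF2 leaves in its GDP form and is recharged by its exchange factor eIF2B, a step that cells slow under stress by phosphorylating eIF2. Elongation then runs on eEF1alpha, which delivers aminoacyl tRNAs and is recharged by the other eEF1 subunits, on eEF2, which moves the ribosome along, and on the hypusine-bearing factor eEF5. Several of these genes have second copies in the fly, some of them known from the male germline.

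The arrays give each probe set a signal, a brightness in arbitrary units that the authors' software scaled to the same average on each array, and a detection call (Present, Marginal or Absent). Signals of different probe sets cannot be ranked against each other, since each set of probes binds with its own strength. Signals are given for replicates 1, 2 and 3 in that order. Replicate 1 of both groups was hybridised on one day (day 1) and the other 4 arrays on another day (day 2). The arrays came from 3 manufacturing lots: lot A held replicate 1 of both groups and GFP-negative replicate 2, lot B replicate 3 of both, and lot C GFP-positive replicate 2. The proneural cluster list summed to signals of 574 to 936 in GFP-negative and 5187 to 5524 in GFP-positive arrays, with all 5 of its genes tested and 3 of them higher. It holds *E(spl)m4* itself, whose reporter defined the sort (mean 236 in GFP-negative and 2353 in GFP-positive cells). *E(spl)m4* and the tested set of *meru* were Present on no GFP-negative array, and *phyl* and *sc* on 1. These genes were thus tested only through the group where they were higher, so the list is no independent check of the sort. Of the wing disc epithelium list, 7 of 8 genes were on the array and 4 were tested, with 1 difference above 0 and 3 below and none passing. *vg*, *ap* and *pnr* were Present on all arrays, *Doc1* on 4, and *nub*, *rn* and *tsh* on none. *pnr* was lower in GFP-positive cells without overlap (mean 248 against 165, log2 difference -0.57, adjusted p = 0.411). Of the muscle precursor list, 4 of 6 genes were on the array, of which 2 were tested and both were lower in GFP-positive cells, and the summed signal of all 4 was 1675 to 2154 in GFP-negative and 134 to 228 in GFP-positive arrays. That sum includes *twi* and *zfh1*, neither of which was Present on any array. The 2 tested genes, *htl* and *Him*, were Present on all GFP-negative arrays and on no GFP-positive array. They were thus tested only through the group where they were higher, so their direction could hardly have differed. The summed signals of the hemocyte, fat body and trachea lists overlapped between the groups, with *Hml*, *NimC1*, *Fbp1* and *btl* Present on no array. For the 3 genes of the glia and nerve list the sums were 828 to 1054 in GFP-negative and 482 to 771 in GFP-positive arrays, of which *nrv2* alone separated the groups (mean 710.2 against 432, adjusted p = 0.19). The groups overlapped for *repo* and *elav*, and *elav* was Present on no array. The part of these cell types in the values below was not tested, and in sorted bulk RNA fewer cells of a type and less RNA per cell cannot be told apart.

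Most of the factor genes were detected in both groups. Of the 48 probe sets, 31 were Present on all 6 arrays and 11 on none, and between 32 and 34 were Present on any one array. In all, 33 probe sets for 31 genes were Present on at least 2 arrays of a group and were tested. That is 68.8% of the members, against 35.4% of all non-control probe sets. The filter hardly acted through one group, since only the 2 probe sets of *eIF2Bdelta* were tested without being Present on all 6 arrays. The 11 genes with no tested probe set were *eEF1alpha2*, *eEFSec*, *eIF4H2*, *eIF3d2*, *eIF3f2*, *eIF3g2* and the eIF4E paralogs *eIF4E3*, *eIF4E4*, *eIF4E5*, *eIF4E6* and *eIF4E7*.

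The related gene *eIF4EHP* was not analysed. Among the eIF4E genes that were, only *eIF4E1*, the general cap-binding factor, was Present on more than 1 array. Its signals were 6390.5, 8571 and 8908 in GFP-negative and 9169.7, 7297 and 10686 in GFP-positive cells, Present on all 6 arrays. *eIF4E3*, which is known for its role in male meiosis, had signals of 72.4, 60.8 and 61.6 in GFP-negative and 26.5, 114 and 107 in GFP-positive cells and was Present on none. Signals of *eIF4E4* were 3.9, 40.5 and 20.2 in GFP-negative and 16.4, 22.9 and 50.2 in GFP-positive cells, and those of *eIF4E5* were 12, 5.3 and 10.3 in GFP-negative and 16.6, 9.8 and 4.4 in GFP-positive cells. For *eIF4E6* they were 15.9, 9.9 and 76.3 in GFP-negative and 12.4, 23.8 and 9.4 in GFP-positive cells. None of these was Present on any array, so the values bear only on background and their order has no meaning. *eIF4E7* had 2 probe sets, of which the first was Present on no array (14.5, 24.5 and 59.2 in GFP-negative and 59.8, 62.6 and 43.7 in GFP-positive cells) and the second on GFP-negative replicate 3 only. The second set had signals of 17.8, 29.9 and 55.7 in GFP-negative and 5.1, 15.4 and 22.3 in GFP-positive cells, and its single Present call carried a detection p-value of 0.032.

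The eIF3 genes *eIF3d2*, *eIF3f2* and *eIF3g2* were not tested, while the genes *eIF3d1*, *eIF3f1* and *eIF3g1* of the same subunits were Present on all 6 arrays. *eIF3d2* had signals of 25.9, 76.4 and 26.1 in GFP-negative and 45.6, 72.5 and 17.0 in GFP-positive cells, with no Present call, and *eIF3d1* read 5330.2, 5613 and 7706 in GFP-negative and 5469, 5063 and 10899 in GFP-positive cells. *eIF3g2* read 17.7, 19.2 and 24.5 in GFP-negative and 36.6, 23.9 and 15.7 in GFP-positive cells and was Present on none. *eIF3f2* was Present on 1 array, GFP-positive replicate 2, and its signals were 56.4, 155 and 266 in GFP-negative and 241, 434 and 90.6 in GFP-positive cells. Both eIF4G genes were detected. *eIF4G2*, a second eIF4G scaffold known from fly spermatogenesis, was Present on all 6 arrays, with signals of 2857, 2225 and 1547 in GFP-negative and 2585, 2348 and 1062 in GFP-positive cells. *eIF4H2*, a copy of the helicase cofactor eIF4H, read 6.6, 5.7 and 8.2 in GFP-negative and 33.8, 19.8 and 10.3 in GFP-positive cells, and *eEFSec*, the factor that delivers selenocysteine, 142, 218 and 169 in GFP-negative and 281, 207 and 274 in GFP-positive cells. Neither was Present on any array, so although the groups did not overlap for *eIF4H2* no fold is given. *eEF1alpha2*, the second gene of the factor that delivers tRNAs, was Present on GFP-negative replicate 1 only and read 245, 196 and 259.9 in GFP-negative and 199.9, 113 and 188 in GFP-positive cells. Absence of a call says that these probe sets did not rise above their mismatch background in these arrays, not that the transcripts are absent.

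**Figure D1:**
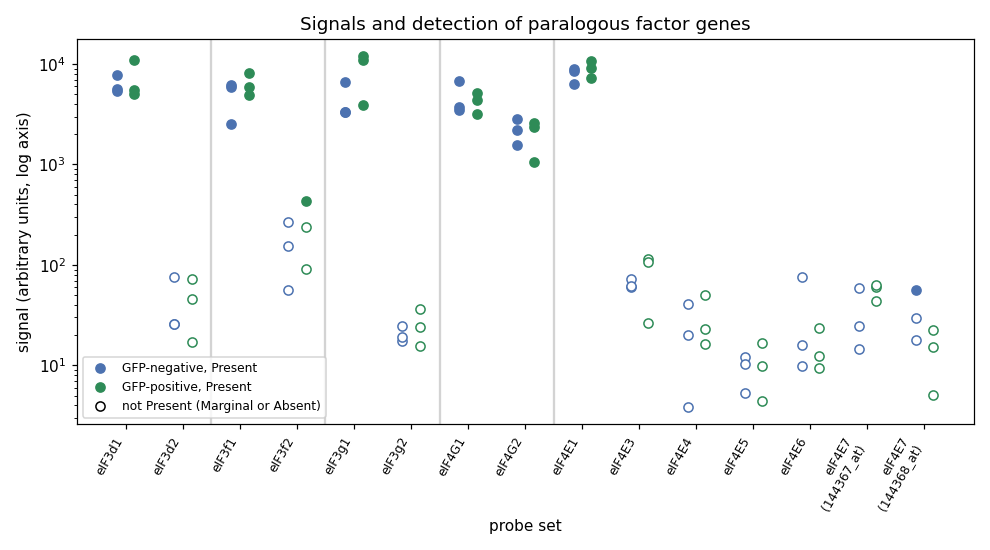
Signal of each array (log axis, arbitrary units) for factor genes that have copies, GFP-negative in blue and GFP-positive in green, filled where the array called the probe set Present. The eIF3d2, eIF3g2 and eIF4E3 to eIF4E6 probe sets have open points only, while both eIF4G genes are filled on all 6 arrays.

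The comparison of the groups asked whether cells with the proneural reporter carry other levels of the translation factor transcripts than the rest of the disc. No factor passed the test: 0 of the 33 tested probe sets had an adjusted p under 0.05 (limma, Benjamini-Hochberg over all 4943 tested probe sets), against a background of 2.99% called. With the replicate number as a block 1 of 33 passed, *eIF3g1*, against 5.2% of all tested probe sets. At an unadjusted p under 0.05 there was also 1 of 33, *eIF2Bgamma*, against 14.0% of all tested. The smallest adjusted p of the family was 0.294. Differences are GFP-positive minus GFP-negative values of log2(signal + 16), a scale that understates the change of dim genes, and they ran from -0.43 (*eIF2Bepsilon*) to 0.93 (*eIF3g1*).

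The intervals of most factors stayed within a 2-fold change. The 95% interval of the difference lay within -1 to 1 on the log2 scale, between a halving and a doubling, for 24 of the 33 probe sets (72.7%), against 66.8% of all tested. The other 9 had intervals that reached past one of these limits, up to 1.88 for *eIF3g1*. Differences had a median of 0.22, beside -0.01 over all tested probe sets, and 24 of 33 were above 0 (72.7%), beside 48.7% of all tested. All 3 GFP-positive arrays exceeded the GFP-negative array of the same number in 12 of 33 (36.4%), beside 17.9% of all tested probe sets, and all 3 were below it in 2. The median was 0.17 under quantile scaling and 0.11 under median scaling, which itself moved the median of all tested probe sets from -0.01 to -0.11. In the day 1 pair the members' median was 0.11 and in the 4 arrays of day 2 it was 0.19. It was 0.055 without GFP-positive replicate 3. The 1236 brightest of all tested probe sets, which include 25 of the 33 members, had a median of 0.014. For comparison, the 20 tested probe sets of aminoacyl tRNA synthetases had a median of 0.023 and the 32 of cytosolic ribosomal proteins 0.41, or 0.062 under quantile scaling, with 0 called in either set. Whether these medians differ was not tested.

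**Figure D2:**
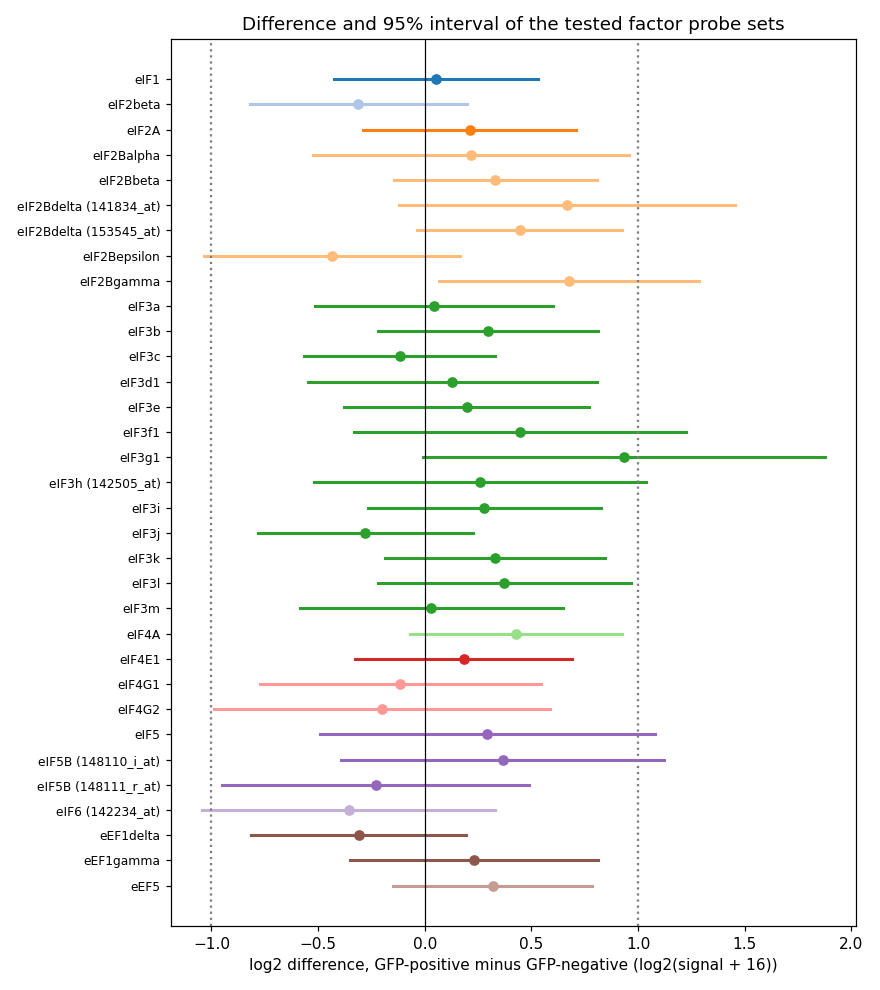
Log2 difference (GFP-positive minus GFP-negative, x axis) of the 33 tested probe sets, with bars for the 95% interval of the limma fit and 1 colour per complex. The dotted lines mark a halving and a doubling. The interval of eIF2Bgamma alone lies wholly on one side of 0, and its adjusted p is 0.294.

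GFP-positive replicate 3 stood highest for many factors. It held the highest of the 6 signals in 19 of the 33 tested probe sets (57.6%), beside 19.6% of all tested probe sets, while GFP-negative replicate 1 was highest in 7. The 5′ control probe sets of *eIF4A*, of GAPDH and of actin were also highest on that array. The 5′ over 3′ signal of the *eIF4A* controls was 1.71%, 2.31% and 0.56% in GFP-negative and 1.31%, 1.75% and 3.50% in GFP-positive arrays, so replicate 3 of each group held the extremes. For actin the same 2 arrays held the extremes (1.37% in GFP-negative and 4.91% in GFP-positive replicate 3). For GAPDH and 18S rRNA GFP-positive replicate 3 was again highest (5.81% and 4.10%). The lowest there was GFP-positive replicate 1 (2.34% and 0.953%), while GFP-negative replicate 3 read 3.39% and 3.50%. The 5′ over 3′ share is commonly read as a sign of how complete the labelled transcripts are. Its part in the members' signals was not tested. The spread between replicates was wider for the members (median SD within a group 0.37 on the log2 scale) than the median of 0.31 over all tested probe sets and 0.29 over the 1236 brightest.

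**Figure D3:**
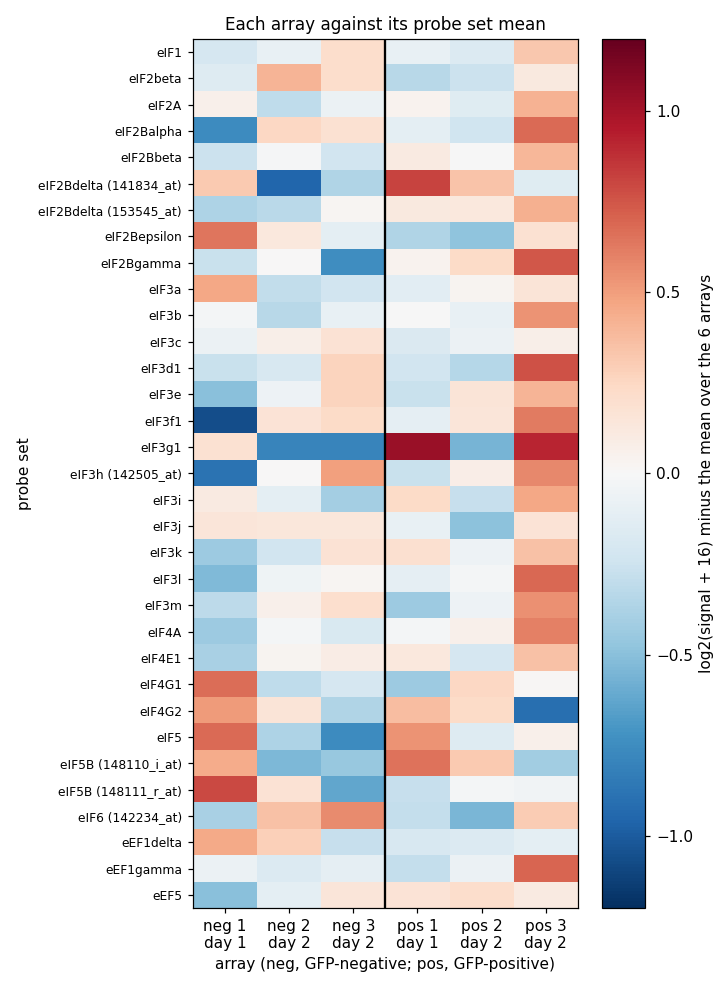
Each cell gives log2(signal + 16) of 1 array minus the mean of that probe set over all 6 arrays, for the 33 tested probe sets, with GFP-negative arrays left of the line. The column of GFP-positive replicate 3 is mostly red, and rows such as eIF3f1, eIF3h and eIF5 differ between day 1 and day 2 more than between the groups.

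The cap-binding complex gave no call. *eIF4A*, the helicase that unwinds leader sequences, had signals of 22014, 29394 and 26188 in GFP-negative and 29392, 31086 and 45314 in GFP-positive cells. GFP-positive replicate 1 lay just below the brightest GFP-negative array, so the groups overlapped, and replicate 3 stood well above the other 5 arrays. The log2 difference of 0.43 (SE 0.224, adjusted p = 0.42) had a 95% interval of -0.068 to 0.93, with 0.42 in the day 1 pair and 0.44 on day 2. Under quantile scaling it was 0.094, and without GFP-positive replicate 3 it was 0.23.

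The array carries 3 further probe sets for *eIF4A* as controls, placed at the 5′ end, the middle and the 3′ end of the transcript, which the family rule left out. The 3′ set had signals of 40040.3, 36526 and 40653 in GFP-negative and 48082, 46287 and 52437 in GFP-positive cells. All GFP-positive arrays were above all GFP-negative arrays there (mean 39073 ± 2227 in GFP-negative and 48935 ± 3163 in GFP-positive cells (SD, n = 3), log2 difference 0.32, two-sided exact permutation p = 0.1, the smallest that 3 arrays against 3 can give). The 3′ sets of GAPDH and actin did not overlap either, with log2 differences of 0.48 and 0.16. The middle set of *eIF4A* read 8098, 11579 and 8356 in GFP-negative and 10784, 10646 and 20604 in GFP-positive cells and the 5′ set 686, 843 and 228 in GFP-negative and 632, 809 and 1837 in GFP-positive cells. In both of these the groups overlapped, and GFP-positive replicate 3 was the highest array. The 5′ set was called Absent on 3 of the 6 arrays. Of the 4 probe sets only the 3′ set separated the groups.

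**Figure D4:**
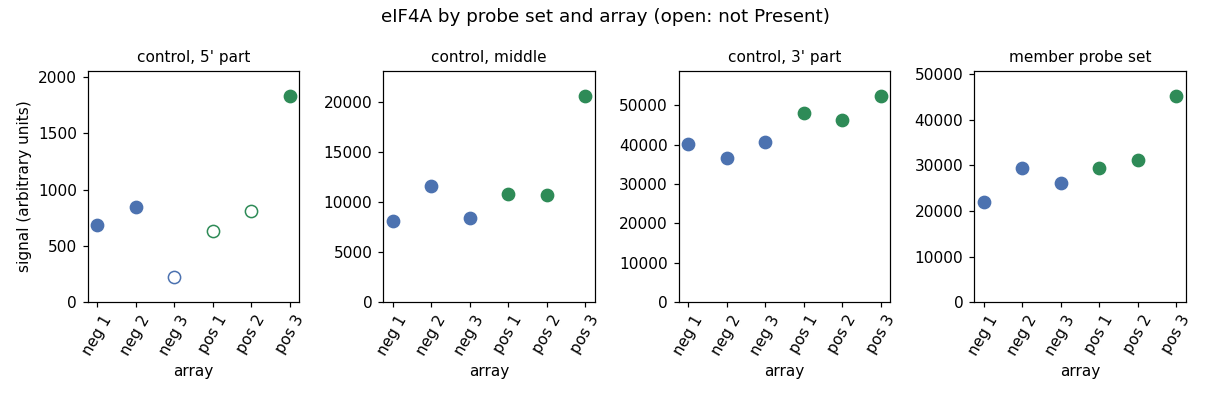
Signal (arbitrary units, linear axes from 0) of the 3 control probe sets and the member probe set of eIF4A in each array, GFP-negative in blue and GFP-positive in green, open where not Present. GFP-positive replicate 3 is highest in every panel, and only the 3′ control separates the groups.

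*eIF4E1* had a mean signal of 7956 ± 1367 in GFP-negative and 9051 ± 1698 in GFP-positive cells (SD, n = 3) and a log2 difference of 0.18 (SE 0.229, adjusted p = 0.777), with an interval of -0.32 to 0.69. *eIF4G1*, the main scaffold, read 6843, 3486 and 3744 in GFP-negative and 3181, 5102 and 4336 in GFP-positive cells. Its GFP-negative replicate 1 was the brightest array and GFP-positive replicate 1 the dimmest, so that the difference was -1.10 in the day 1 pair and 0.38 on day 2, around a fitted log2 difference of -0.11 (SE 0.297, adjusted p = 0.909). *eIF4G2* gave a log2 difference of -0.20 (SE 0.355, adjusted p = 0.853), with the dimmest signal on GFP-positive replicate 3, against the direction of most factors on that array.

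eIF2B, the exchange factor of eIF2, gave no call. Its 5 subunits have 6 probe sets, all tested, of which 0 passed, 5 had a difference above 0 and 1 below, with a median of 0.39, or 0.42 under quantile and 0.29 under median scaling. Of the 33 tested members, 3 had groups that did not overlap (9.09%, beside 20.8% of all tested probe sets in either direction), and all 3 were eIF2B probe sets with GFP-positive cells higher, a direction in which 9.43% of all tested probe sets did not overlap. The members' share is thus at or below that of the array, and complexes were not tested against each other.

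*eIF2Bgamma*, which with the epsilon subunit forms the catalytic part of the exchange factor, read 518, 629 and 368 in GFP-negative and 647, 739.7 and 1060.3 in GFP-positive cells. All GFP-positive arrays lay above the brightest GFP-negative one, though by little for replicate 1. The means were 505 ± 131 in GFP-negative and 816 ± 217 in GFP-positive cells (SD, n = 3), with a log2 difference of 0.68 (SE 0.273, adjusted p = 0.294) and a day 1 and day 2 difference of 0.31 and 0.86. *eIF2Bdelta*, a regulatory subunit, had 2 probe sets. The set Present on all GFP-positive arrays read 1711, 1776 and 2256 in GFP-negative and 2402, 2430.1 and 2981 in GFP-positive cells, with no overlap between the groups. Its log2 difference of 0.45 (SE 0.216, adjusted p = 0.403) came with similar differences in the day 1 pair (0.49) and on day 2 (0.42). The other set read 471, 186 and 288 in GFP-negative and 668, 479 and 337 in GFP-positive cells, with overlap, and was Present on 2 GFP-negative arrays but on no GFP-positive array although its signals there were on average higher. It gave a log2 difference of 0.67 (SE 0.355, adjusted p = 0.433).

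*eIF2Bbeta*, another regulatory subunit, read 862, 1027 and 879.8 in GFP-negative and 1113, 1028 and 1369 in GFP-positive cells. The brightest GFP-negative and the dimmest GFP-positive array were nearly equal, and the log2 difference of 0.33 (SE 0.214, adjusted p = 0.542) did not pass. *eIF2Balpha*, the last regulatory subunit, read 459, 933 and 890 in GFP-negative and 721, 662 and 1265 in GFP-positive cells and gave a log2 difference of 0.22 (SE 0.334, adjusted p = 0.825). GFP-negative replicate 1 was its dimmest array and GFP-positive replicate 3 its brightest. *eIF2Bepsilon*, the subunit that carries the exchange activity, had the opposite sign, with signals of 1859.9, 1297 and 1097 in GFP-negative and 924, 848 and 1352 in GFP-positive cells and a log2 difference of -0.43 (SE 0.271, adjusted p = 0.522). Its groups overlapped, and the difference was -1.0 in the day 1 pair, -0.15 on day 2 and -0.22 without GFP-negative replicate 1. *eIF2beta*, the subunit of eIF2 itself that was tested, read 5789.5, 8549 and 7435 in GFP-negative and 5119, 5365 and 6994 in GFP-positive cells, with a log2 difference of -0.31 (SE 0.229, adjusted p = 0.614). *eIF2A*, a separate protein that can bring initiator tRNA to the ribosome, gave a log2 difference of 0.21 (SE 0.225, adjusted p = 0.739).

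eIF3, the multisubunit scaffold on the small ribosomal subunit, had 17 probe sets for 16 genes, of which 13 were tested, each of another gene. None passed without a block, 11 differences were above 0 and 2 below, and their median was 0.26. Under median scaling 9 were above 0, since *eIF3a* (0.043) and *eIF3m* (0.031) turned to -0.060 and -0.072. The widest gap was in *eIF3g1*, an RNA-binding subunit, which read 6577, 3319.7 and 3337 in GFP-negative and 11903, 3928 and 10906 in GFP-positive cells. GFP-positive replicates 1 and 3 were far above all other arrays, but GFP-positive replicate 2 lay within the GFP-negative range. The means were 4411 ± 1875 in GFP-negative and 8912 ± 4346 in GFP-positive cells (SD, n = 3), with a log2 difference of 0.93 (SE 0.424, adjusted p = 0.363). Each GFP-positive array was above the GFP-negative array of the same number, by log2 0.85, 0.24 and 1.70. With the replicate number as a block the adjusted p was 0.0432 and with the array lot as a block 0.0368 (log2 1.5, against 2.67% of all tested probe sets called), and over all alternatives it ran from 0.0368 to 0.712. Lot C held GFP-positive replicate 2 alone, so the lot block sets aside that array, and without it the difference was 1.44 (adjusted p = 0.0664). With 1 array left out the difference ran from 0.65 to 1.44. It was 1 of the genes in which day 1 arrays were brighter (log2 0.92, adjusted p = 0.214).

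The remaining tested eIF3 subunits gave no call. *eIF3k* read 3002, 3473 and 4609 in GFP-negative and 4667, 3920 and 5221 in GFP-positive cells, with a log2 difference of 0.33 (SE 0.232, adjusted p = 0.597). *eIF3l*, its partner in the complex, read 3744, 5199.6 and 5474 in GFP-negative and 5012, 5328 and 8702 in GFP-positive cells, with a log2 difference of 0.37 (SE 0.266, adjusted p = 0.6). In both of these the groups overlapped and GFP-positive replicate 3 was the brightest array, without which *eIF3l* was at 0.12. *eIF3h* had 2 probe sets. The tested one read 2260.1, 4222 and 5911 in GFP-negative and 3491, 4448 and 6252 in GFP-positive cells, and gave a log2 difference of 0.26 (SE 0.35, adjusted p = 0.798, interval -0.52 to 1.04). The other was Present on 1 array of each group and read 1029, 571 and 679 in GFP-negative and 1243, 571 and 986 in GFP-positive cells. The core subunits *eIF3a* and *eIF3b*, around which the complex assembles, had differences of 0.043 and 0.30 (adjusted p = 0.958 and 0.636). For *eIF3c*, which contacts the factors that choose the start codon, the difference was -0.12 with the narrowest interval of the family, -0.56 to 0.33. *eIF3j*, a loosely attached subunit, had the lowest difference of the complex, -0.28 (adjusted p = 0.651). Its GFP-negative arrays were nearly equal, 1313, 1302 and 1306. The others, *eIF3d1*, *eIF3e*, *eIF3f1*, *eIF3i* and *eIF3m*, had differences between 0.031 and 0.45. The largest of these was that of *eIF3f1*, with an interval of -0.33 to 1.22. It was 0.96 in the day 1 pair and 0.19 on day 2.

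Factors that act at the start codon and in subunit joining gave no call either. *eIF1*, which guards start codon choice, gave a log2 difference of 0.052 (SE 0.215, adjusted p = 0.943), and it turned to -0.055 and -0.051 under quantile and median scaling. *eIF5*, which triggers GTP hydrolysis on eIF2, had signals of 6339, 3056 and 2328 in GFP-negative and 5731, 3533 and 4116 in GFP-positive cells. Both replicate 1 arrays were the brightest of their groups, and the log2 difference of 0.29 (SE 0.353, adjusted p = 0.773) was -0.15 in the day 1 pair and 0.51 on day 2. *eIF5B*, which joins the large subunit, had 3 probe sets that disagreed. The set marked i read 1103, 548 and 581 in GFP-negative and 1271, 1002 and 599.8 in GFP-positive cells, with a log2 difference of 0.37 (SE 0.341, adjusted p = 0.691). The set marked r read 2417, 1575 and 900 in GFP-negative and 1148, 1366 and 1349 in GFP-positive cells, with a log2 difference of -0.23 (SE 0.324, adjusted p = 0.806). The set without a mark was Present on no array and read 98.4, 66.8 and 76.2 in GFP-negative and 89.0, 88.8 and 72.8 in GFP-positive cells. The marks i and r in the manufacturer's names stand for sets whose probes were reduced or chosen with relaxed rules.

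*eIF6*, which holds free large subunits apart from small ones, was read by 2 probe sets. The detected one read 1567, 2639.6 and 3066 in GFP-negative and 1687, 1399.8 and 2547 in GFP-positive cells, with a log2 difference of -0.36 (SE 0.309, adjusted p = 0.668) and a day 1 and day 2 difference of 0.10 and -0.59. The other was Present on no array, with signals of 406, 354 and 409 in GFP-negative and 239.8, 207 and 82.3 in GFP-positive cells. Its groups did not overlap, GFP-negative being higher, but with no detection in either group no fold is given.

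Of the elongation factors 3 were tested. *eEF5*, the hypusine-bearing factor that helps ribosomes over difficult peptide bonds, read 16990, 22112 and 26555 in GFP-negative and 26899.5, 27754 and 25940.2 in GFP-positive cells. GFP-positive arrays were close together and GFP-negative arrays spread, with a log2 difference of 0.32 (SE 0.209, adjusted p = 0.553) that was 0.052 under quantile scaling. *eEF1delta*, a nucleotide exchange subunit for eEF1alpha, read 15147, 13511 and 9144 in GFP-negative and 9708, 9890.1 and 10224 in GFP-positive cells. GFP-negative replicates 1 and 2 were brighter than all other arrays, and the log2 difference of -0.31 (SE 0.227, adjusted p = 0.614) did not pass. *eEF1gamma*, the structural subunit of the same exchange complex, read 9000.2, 8452 and 8825 in GFP-negative and 7768, 9029.5 and 15418 in GFP-positive cells. GFP-positive replicate 3 alone stood apart, and the log2 difference of 0.23 (SE 0.262, adjusted p = 0.756) was -0.21 in the day 1 pair and 0.45 on day 2.

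Gaps between the days were as wide as those between the groups. In the fit with day as a term, 0 of 33 members passed for day 1 against day 2, against 0.384% of all tested probe sets. At an unadjusted p under 0.05 there were 10 members (30.3%), beside 15.7% of all tested probe sets. The gap between days was wider than the gap between groups in 20 of 33 (60.6%), beside 50.2% of all tested probe sets. The lowest adjusted p for day belonged to *eIF5* (log2 0.91 higher on day 1, adjusted p = 0.104), followed by *eIF3f1* (log2 -0.88, adjusted p = 0.12) and *eIF3h* (log2 -0.87, adjusted p = 0.128). Each day held both groups.

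Genes that act beside the factors were taken from a list of 39 other translation genes: release and recycling factors, partners of the cap-binding complex, eIF2 and TOR kinases, modifying enzymes and mitochondrial factors. The array read 31 of them and 24 were tested with 26 probe sets. None passed over all genes (limma) and 0 had an unadjusted p under 0.05, with 14 differences above 0, 12 below and a median of 0.041. *Non1*, a nucleolar GTPase of ribosome assembly, read 7115, 6092 and 8092 in GFP-negative and 10308, 7879 and 11566 in GFP-positive cells, with a log2 difference of 0.47 (SE 0.222, adjusted p = 0.389). A second *Non1* probe set was Present on 1 GFP-negative array and was not tested. *mxt*, which encodes an eIF4E-binding scaffold, read 971, 897 and 711 in GFP-negative and 1058, 1343 and 1139 in GFP-positive cells, with a log2 difference of 0.45 (SE 0.22, adjusted p = 0.403). *pelo*, a factor that rescues stalled ribosomes, had the lowest difference, with signals of 2566, 1223 and 711 in GFP-negative and 749, 1009.7 and 587 in GFP-positive cells and a log2 difference of -0.77 (SE 0.409, adjusted p = 0.436). The groups overlapped for *pelo* through GFP-negative replicate 3. *Dph2*, a diphthamide enzyme that modifies eEF2, read 924, 1039.7 and 738 in GFP-negative and 1281, 949 and 1277 in GFP-positive cells, with a log2 difference of 0.37 (SE 0.231, adjusted p = 0.522). *CG8005* (now *Dhps*), an enzyme of the pathway to the hypusine of eEF5, read 1870.3, 1310.5 and 1507 in GFP-negative and 1715, 907 and 994 in GFP-positive cells, with a log2 difference of -0.41 (SE 0.278, adjusted p = 0.57). For the release factor *eRF1* the signals were 11777, 10001 and 9368 in GFP-negative and 10638, 11427 and 15842 in GFP-positive cells, and the fit gave a log2 difference of 0.27 (SE 0.22, adjusted p = 0.652). The groups overlapped in all 3 of these genes. *Gcn2*, a kinase of eIF2, had a difference of 0.094 with an interval of -0.35 to 0.54.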

How the data were processed

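Wing disc cells sorted by E(spl)m4-GFP fluorescence (3 GFP-positive and 3 GFP-negative samples) were read on 1-colour Affymetrix DrosGenome1 arrays. Per the file headers, the array software's statistical algorithm summarised each probe set as a signal intensity scaled to a target of 500 (scaling factors 4.40 to 6.52), deposited by the authors with a detection call and a detection p-value. Details of earlier steps were not given in the sources used here, and the deposited series table held the same signals. Of 14010 probe sets, 12443 had 1 gene symbol, 327 several and 1196 none, and 44 were controls.

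Here log2(signal + 16) was fitted with limma 3.58.1 in R 4.3.3 (lmFit, eBayes with trend) on the 4943 probe sets that either group called Present on 2 or 3 arrays, with Benjamini-Hochberg adjustment over all of them at 0.05. Arrays carry no read depth, and 3 arrays a group limit the precision. The main fit alone was tested on simulated data. Those data had noise drawn separately for each array, with no day, lot or replicate structure. The filter, the scalings and the blocks were not part of that test. The members and gene lists were chosen with earlier results of these data known. Signals of each array are given for members with an adjusted p under 0.05, the 12 with the smallest p, those Present on 2 or more arrays of 1 group and none of the other, those with several probe sets, all eIF4A, eIF4E, eIF4G and eEF members and the 6 other translation genes with the smallest p. Other members are named as the highest or lowest of a class; *eIF5*, the core eIF3 subunits, the undetected genes, *eIF1*, *eIF2A*, *eIF2Balpha* and *Gcn2* were named after their values were seen.

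The main fit held the group only and used no pairs. For the replicate block, the replicate numbers were taken as pairs by a rule on the correlation of same-numbered deviations from the group means. These were r = 0.40, 0.102 and 0.12, all over 0.1, the second of them barely. Pair 1, with r = 0.40, also shared day 1 and lot A, so a shared sort and a shared batch cannot be told apart. GFP-negative replicate 2 correlated more with GFP-positive replicate 3 (r = 0.22), and no label says that a number marks a shared sort, so results with the block rest on this rule. Alternatives were other pseudocounts, scalings and filters, blocks for replicate, day and array lot, the arrays of each day or lot, and leaving out each array. The day term, the median of the 1236 brightest probe sets and the *eIF4A* control probe sets were added after seeing the data.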

Additional observations from a re-analysis of the deposited data

How the results depend on the processing

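With 0 factors called, no call could be lost. With the replicate block and with the lot block 1 member passed in each, *eIF3g1*, and 0 in every other setting, including each array left out (0 to 0). Over all 4943 probe sets 148 passed. This count was 97 with no filter, 50 with only probe sets Present on all 6 arrays, 257 with the replicate block, 229 with day as a block, 76 in the arrays of day 2 and 69 to 153 with 1 array left out. The filters test other probe sets and the day 2 fit fewer arrays; the cause of the other shifts was not tested. The members' median of 0.22 ran from 0.055 (without GFP-positive replicate 3) to 0.32 with 1 array left out. For the other translation genes the median of 0.041 became -0.062 with median scaling, -0.049 with the lot block and -0.17 in the lot B pair, and ran from -0.028 to 0.15 with 1 array left out. Single factors whose sign turned were *eIF1* (-0.055 quantile, -0.051 median scaling), *eIF3a* (-0.060 median scaling), *eIF3m* (-0.072 median scaling, -0.032 lot block), and, in the day 2 arrays, *eIF4G1* (0.38) and the *eIF5B* set marked r (0.19). With 1 array left out the ranges that crossed 0 were -0.064 to 0.43 for *eEF1gamma*, -0.098 to 0.17 for *eIF1*, -0.11 to 0.39 for *eIF2Balpha*, -0.096 to 0.28 for *eIF3a*, -0.22 to 0.33 for *eIF3d1*, -0.0044 to 0.38 for *eIF3e*, -0.12 to 0.57 for *eIF3h*, -0.23 to 0.26 for *eIF3m*, -0.29 to 0.19 for *eIF4G1*, -0.44 to 0.20 for *eIF4G2*, -0.011 to 0.71 for *eIF5* and -0.60 to 0.11 for the *eIF5B* set marked r. Of the 21 members whose sign held with each array left out, 19 moved by over 1.5 times without at least 1 array, 12 of them without GFP-positive replicate 3 and 10 without GFP-negative replicate 1. Of 559 values over 17 alternatives 531 kept sign and side of the threshold, 26 changed sign and 2 passed newly. The replicate block changed no call of a member other than *eIF3g1*. Probe sets near background have signals that carry no order.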
